A study of Homo sapiens with 6 samples.

Results

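The genes examined here encode the nuclear part of the oxidative phosphorylation machinery, and their mRNA was measured in the human leukaemia line RPMI-8402, an established line derived from T-cell acute lymphoblastic leukaemia. Members were all protein-coding RefSeq genes whose symbol begins with NDUFA, NDUFB, NDUFC, NDUFS, NDUFV, SDH, UQCR, COX4, COX5, COX6, COX7, COX8 or ATP5, together with CYC1. The array carried a probe for 98 of the 101 genes that meet this rule, out of 19695 named genes in all, and 95 of the 98 were among the 14489 named genes that could be tested. Cells had received lentivirus with a control shRNA, with an shRNA against GATA3 (shGATA3) or with shRNA against TCF7, which encodes TCF1 (shTCF1). EGFP marked the transduced cells, which were sorted 48 h later, and 100 ng of RNA per sample was labelled with Cy3. Each of the 3 groups held 2 arrays, and the study describes the replicates as independent experiments. All groups came from 1 cell line. The study's methods list 1 GATA3 shRNA vector and do not say how many hairpins against TCF7 were used. In such bulk samples a smaller share of cells expressing a gene and less mRNA per cell cannot be told apart.

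Oxidative phosphorylation takes electrons from NADH at complex I and from succinate at complex II, passes them through complexes III and IV to oxygen, and uses the resulting proton gradient at complex V to make ATP. Most subunits are encoded in the nucleus and imported, while a few core subunits come from mitochondrial DNA. Transcription of the nuclear genes is known to depend on factors such as NRF1, GABPA and YY1, which the coactivators PPARGC1A and PPARGC1B support. Developing and leukaemic T cells use this machinery for ATP and for the aspartate and nucleotide synthesis that proliferation requires. By complex, the members were 45 genes of complex I, 8 of complex II, 9 of complex III, 17 of complex IV and 19 of complex V. The symbol rule also took in 12 assembly factors, which help to build a complex but stay outside it, 8 for complex I and 4 for complex II, and ATP5IF1, the inhibitor of ATP hydrolysis by complex V.

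Genes whose level differed from control in at least 1 hairpin group, at an adjusted p below 0.05, included COX7C, NDUFB11, NDUFAF3, ATP5F1C and NDUFAF4. The promoters of 3 of them are shown because they hold a match to a motif of a regulator named above or of the GATA family. Each line gives the 250 bases before the RefSeq transcription start on assembly GRCh38.p14, with motif matches in capitals. ATP5F1C lies on the plus strand at chr10:7787927-7788176, COX7C on the plus strand at chr5:86617691-86617940 and NDUFAF4 on the minus strand at chr6:96897892-96898141.
ATP5F1C: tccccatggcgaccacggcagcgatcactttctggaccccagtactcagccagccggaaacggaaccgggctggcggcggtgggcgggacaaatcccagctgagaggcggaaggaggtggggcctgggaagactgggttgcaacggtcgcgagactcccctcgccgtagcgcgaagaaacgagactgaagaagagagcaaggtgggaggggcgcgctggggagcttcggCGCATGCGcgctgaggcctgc
COX7C: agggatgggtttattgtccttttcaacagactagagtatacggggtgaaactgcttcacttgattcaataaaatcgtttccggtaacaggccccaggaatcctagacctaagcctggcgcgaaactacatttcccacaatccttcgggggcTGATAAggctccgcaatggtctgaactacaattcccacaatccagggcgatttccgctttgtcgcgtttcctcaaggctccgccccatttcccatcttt
NDUFAF4: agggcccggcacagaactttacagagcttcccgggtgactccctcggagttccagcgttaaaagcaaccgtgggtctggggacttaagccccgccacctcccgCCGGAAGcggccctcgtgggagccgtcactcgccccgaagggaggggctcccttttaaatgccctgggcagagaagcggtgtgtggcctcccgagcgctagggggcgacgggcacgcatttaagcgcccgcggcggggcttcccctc
The capitals mark the NRF1 core CGCATGC in ATP5F1C, where matches on both strands overlap, a GATA motif, TGATAA, in COX7C and the ETS motif CCGGAAG, which GABPA binds, in NDUFAF4. RefSeq promoters were matched for 81 of the 98 members. Both strands of the 300 bases from 250 before to 50 after the start were searched. NRF1's core was present in 19.8% of the members' promoters and in 5.14% of the promoters of all 15842 protein-coding genes in the table, the ETS motif in 28.4% and 14.2%, and the YY1 motif AAGATGGC in 13.6% and 3.91%. NDUFAF4 also held the NRF1 core after the start, outside the stretch shown. The GATA motifs AGATAA and TGATAA, alike but for the first letter, were present in 8.64% and 3.70% of members, against 7.57% and 5.43% of all, and the TCF motif CTTTGA in 6.17% against 10.9%. Of the 5 changed genes with a promoter in the table, NDUFAF3 and NDUFB11 held none of these motifs.

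Several facts about the arrays bear on all values below. Levels are normalized log2 intensities, so that a difference of 1 is a doubling of signal, and each gene was read from its brightest tested probe. Levels of different probes are not comparable as amounts of RNA. GATA3 was not called lower in shGATA3. It had 9.46 and 9.55 there against 9.54 and 9.56 in control, and limma gave -0.050 with an adjusted p of 0.795. The name shGATA3 below therefore stands for the label, and no loss of GATA3 was measured. This rests on a single tested GATA3 probe. The study reports knockdown by its GATA3 shRNA in CD34+ thymocytes, which are other cells than these. TCF7 was lower in shTCF1 by -1.31 (adjusted p 0.00393 in limma), with 12.58 and 12.68 against 13.96 and 13.91. All 11 T-lineage markers with a probe were well above background on every array, as were 3 of 4 B-lineage, 2 of 3 myeloid, 1 of 2 erythroid and 2 of 4 stromal or epithelial markers, while HBB, COL1A2 and EPCAM were so on 0 arrays. Raw intensity at the 75th percentile was higher in control than in shGATA3, 1.59-fold, and than in shTCF1, 1.62-fold. All arrays shared 1 slide and 1 scan, with both control arrays in a slide column of their own, so that slide column and hairpin cannot be told apart.

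Few oxidative phosphorylation genes differed from control. On the shGATA3-labelled arrays, limma called 3 of 95 members, COX7C and NDUFAF3 higher and ATP5F1C lower, where 6.84% of all 31134 tested probes were called, 2.88% higher and 3.96% lower. In shTCF1 it called 5 of 95 members, 2 higher and 3 lower, among them COX7C and NDUFB11 higher and NDUFAF4 and ATP5F1C lower, where 16.9% of all probes were called, 7.21% higher and 9.73% lower. All 95 tested members were well above background on all 6 arrays, so that the filter on dim probes chose none of them through 1 group. The remaining 3 members, COX7A1, COX7B2 and COX8C, were well above background on 0 arrays. Most differences were small, as they were on the arrays as a whole. Within 0.5 of control lay 90 and 89 of the 95 members in the 2 contrasts, and 85.1% and 78.9% of all tested probes. The limma calls rest on very few arrays: without control replicate 1 limma called 0 members in either contrast, without control replicate 2 it called 1 and 0, without shGATA3 replicate 1 or 2 it called 1 and 0 in the first contrast, and without shTCF1 replicate 1 or 2 it called 3 and 0 in the second. An exact permutation test on 2 arrays against 2 cannot give a two-sided p under 0.333.

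Relative to the bulk of the probes, the members as a group lay slightly above control in shGATA3 and close to it in shTCF1. The median difference over the 95 members was 0.13 for shGATA3, with 70 members above 0. It lay between 0.041 and 0.22 under 5 other normalizations, among them the deposited matrix, whose centring is unstated. The 0.22 came from that matrix, whose control replicate 2 column correlated at only 0.759 with that array's scanner values. The next highest was 0.18, with 75th percentile scaling. Scaled on added control RNAs, as described at the end, the shGATA3 median was -0.70. For shTCF1 it was 0.0092, with 49 above 0, and its sign turned with the normalization, from -0.069 to 0.060 over the same 5 and to -0.70 on the control RNAs. Over all tested probes the medians were -0.011 and -0.020, with 48.6% and 47.9% above 0. Under the same 5 they ran from -0.0073 to 0.055 and from -0.016 to 0.056. With quantile normalization the shGATA3 median was 0.031 over all tested probes and 0.041 over the members, so that the members lay barely above the bulk there. The arrays did not overlap between groups for 61 members in the first contrast, 50 higher and 11 lower, and for 62 in the second, 33 higher and 29 lower, where the groups did not overlap at 60.2% and 66.9% of all probes. Of all probes, 29.1% were higher and 31.1% lower without overlap in the first contrast, and 31.8% and 35.1% in the second. The 83 subunits, ATP5IF1 included, had a median of 0.14 for shGATA3 and of 0.025 for shTCF1, the latter turning to -0.052 at the lowest under the same 5. The 12 assembly factors had medians of -0.059 and -0.15, of which the first became 0.098 with the deposited matrix. Probe brightness moved with this split, since 77 of the 83 subunits but 2 of the 12 assembly factors lay in the brightest decile of tested probes, and its part was not tested. In that brightest decile the medians were 0.039 and 0.047.

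**Figure D1:**
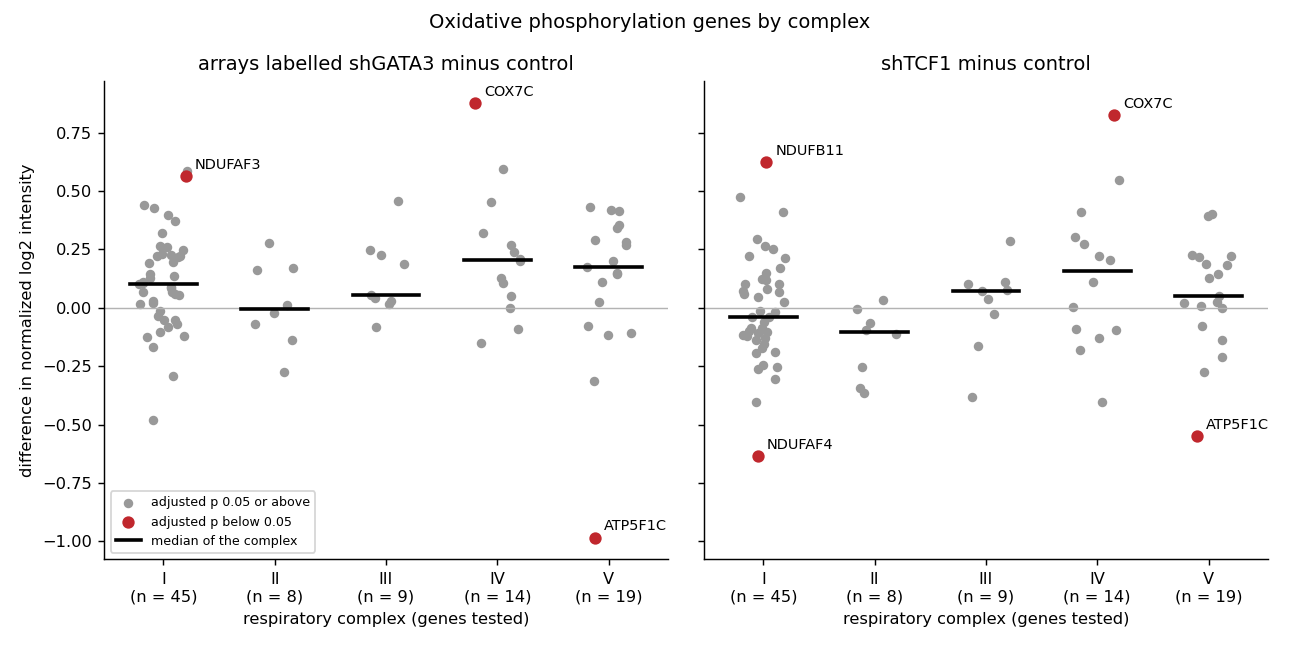
Difference in normalized log2 intensity from control for 94 of the 95 tested genes, by complex, for the shGATA3-labelled arrays (left) and for shTCF1 (right). Each dot is 1 gene, red dots passed an adjusted p of 0.05 in limma, and black bars are medians over all tested genes of the complex. For complex IV these medians were 0.20 and 0.16. They stayed above 0 under 5 other normalizations, the deposited matrix among them, while scaling on control RNAs put 94 of 95 genes below control.

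Complex I is the NADH dehydrogenase and the largest of the complexes, with a few conserved core subunits that carry flavin and iron-sulfur clusters and many accessory subunits around them. Of its 45 genes 1 was called on the shGATA3-labelled arrays and 3 in shTCF1. NDUFAF4, an assembly factor that acts early in building the complex, had 10.00 and 10.13 in control, 9.65 and 9.52 in shGATA3 and 9.41 and 9.44 in shTCF1. All 4 hairpin arrays lay below both control arrays, and the fall of 0.64 in shTCF1 was called (adjusted p 0.0175 in limma), whereas the difference of -0.48 in shGATA3 was just outside the threshold (adjusted p 0.0554).

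NDUFB11 and NDUFAF3 were higher. NDUFB11, an accessory subunit of the membrane arm encoded on the X chromosome, had 13.34 and 13.32 in control, 13.71 and 13.80 on the shGATA3-labelled arrays and 13.86 and 14.04 in shTCF1. The shTCF1 arrays were highest, a 1.54-fold higher signal than control (difference 0.62, adjusted p 0.0198 in limma), and the shGATA3 difference of 0.43 was not called (adjusted p 0.0767). NDUFAF3, which works together with NDUFAF4 during assembly, had 13.48 and 13.46 in control, 13.95 and 14.13 in shGATA3 and 13.85 and 13.91 in shTCF1. It was called in shGATA3 at 1.48-fold (difference 0.57, adjusted p 0.0397) and missed the threshold in shTCF1 (difference 0.41, adjusted p 0.0533). The shGATA3 call was lost with the replicate number as a block (adjusted p 0.0655) and in all 6 fits that left out 1 array. The partner factors NDUFAF3 and NDUFAF4 lay on opposite sides of control in both hairpin groups. The core subunits NDUFS1 and NDUFV1, which pass electrons from NADH inward, lay near control, with differences of 0.19 and 0.07 in shGATA3 and 0.08 and 0.07 in shTCF1, none called. Over complex I the median was 0.10 in shGATA3 and -0.037 in shTCF1, where 75th percentile scaling turned it to 0.010 and the deposited matrix to 0.17.

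Complex II, succinate dehydrogenase, belongs to both the respiratory chain and the tricarboxylic acid cycle and has no subunit from mitochondrial DNA. None of its 8 genes was called by limma, and 0 and 2 had an unadjusted p under 0.05 for shGATA3 and shTCF1, against 26.5% and 35.0% of all probes. SDHA, the flavoprotein that oxidises succinate, had 13.46 and 13.40 in control, 13.42 and 13.47 in shGATA3 and 13.30 and 13.43 in shTCF1, with all groups overlapping. SDHB, the iron-sulfur subunit, differed by -0.02 and -0.25, and the membrane anchors SDHC and SDHD by 0.16 and -0.0030 and by -0.27 and -0.36, respectively. SDHD had the value furthest from control of the 4 subunits in both contrasts, and its 3 probes lay between -0.40 and -0.27 in shGATA3 and between -0.36 and -0.19 in shTCF1. In shTCF1, 7 of the 8 genes lay below control, with a median of -0.10 that stayed below 0 under the 5 other normalizations.

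Complex III, the cytochrome bc1 complex, had 9 members and 0 calls by limma, with 1 gene at an unadjusted p under 0.05 in each contrast, below the same shares of all probes. Its catalytic nuclear subunits, the Rieske protein UQCRFS1 and cytochrome c1, encoded by CYC1, differed by 0.05 and -0.08 in shGATA3 and by -0.03 and -0.16 in shTCF1. The median over the complex was 0.055 and 0.072. The first was -0.00049 with normexp and 0.84 with the deposited matrix, and the second turned to -0.058, -0.027 and -0.17 with quantile normalization, cyclic loess and normexp. UQCR10, a small subunit next to cytochrome c1, stood out in the direct comparison given below.

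Complex IV, cytochrome c oxidase, had medians of 0.20 in shGATA3 and 0.16 in shTCF1, and 12 and 9 of its 14 tested genes lay above control. COX7C, a small subunit of the membrane part of the enzyme, was the only one called. It had 15.12 and 15.13 in control, 15.89 and 16.12 on the shGATA3-labelled arrays and 15.88 and 16.02 in shTCF1. All 4 hairpin arrays lay above both control arrays, which were nearly equal. The signal was 1.84-fold higher in shGATA3 (difference 0.88, SE 0.12, adjusted p 0.0174 in limma) and 1.77-fold higher in shTCF1 (difference 0.83, SE 0.12, adjusted p 0.0128). COX4I1, the regulatory subunit that binds ATP, differed by 0.0013 and -0.18, and COX5A, a matrix subunit, by -0.09 and -0.10, with neither called.

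Complex IV is also where human cells choose between isoforms of a subunit. Both genes of the COX4I, COX6A and COX6B pairs were well above background on all 6 arrays. However, COX4I2 read only 5.85 to 6.18 and COX6A2 5.60 to 6.86. The B-lineage marker MS4A1, at 5.21 to 5.64, and the myeloid marker CD14, at 7.25 to 7.48, were so too. Being well above background therefore does not show that this T-cell line expresses COX4I2 or COX6A2, which was not tested. COX7A2 and COX7A2L were also well above background on all 6 arrays, but COX7A1, the isoform of heart and skeletal muscle, was not on any array. COX7B and COX8A were well above background throughout, and COX7B2 and COX8C were not on any array. COX6B2, known as the isoform of testis, had 12.60 and 12.56 in control, 12.99 and 13.36 in shGATA3 and 13.22 and 13.03 in shTCF1, with every hairpin array above every control array. Limma did not call its differences of 0.59 and 0.55, with adjusted p of 0.0763 and 0.0607, and its dimmer probe gave 0.16 and 0.22. The control means of the 2 probes were far apart, at 12.58 and 8.48. Which transcripts the brighter probe reads was not tested. The 3 ATP5MC genes, which encode the same mature c subunit of complex V, were all well above background, with ATP5MC2 at 0.28 and 0.39, ATP5MC1 at -0.11 and -0.14 and ATP5MC3 at -0.11 and -0.21 in the 2 contrasts, none called. NDUFA4 was not analysed here.

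Complex V, the ATP synthase, held the largest fall among the called members. ATP5F1C encodes the gamma subunit, the shaft that turns inside the catalytic head. Its level was 12.58 and 12.38 in control, 11.49 and 11.50 on the shGATA3-labelled arrays and 11.82 and 12.04 in shTCF1. The 3 groups did not overlap: control was highest, shTCF1 intermediate and shGATA3 lowest. The signal was 1.98-fold lower in shGATA3 (difference -0.98, SE 0.13, adjusted p 0.0139 in limma) and 1.46-fold lower in shTCF1 (difference -0.55, SE 0.13, adjusted p 0.0371). The difference between the hairpin groups, -0.43, was not called (adjusted p 0.109). The second of these falls lost its call in a limma fit to the 4 arrays of that contrast (adjusted p 0.0564). It also lost it with the replicate number as a block (adjusted p 0.0635). The same held in every fit that left out 1 array, where the difference lay between -0.66 and -0.44. Under the 4 other bulk normalizations of the scanner values ATP5F1C was called lower in both contrasts. The difference then ran from -1.07 to -0.94 in shGATA3 and from -0.70 to -0.50 in shTCF1. The deposited matrix turned the direction, with differences of 2.51 and 3.07 that were not called. That matrix's control replicate 2 column correlated at only 0.759 with the scanner values of its array.

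None of the other 18 genes of the complex was called. ATP5F1A and ATP5F1B, the alpha and beta subunits that surround the gamma shaft, differed by -0.08 and -0.31 in shGATA3 and by 0.03 and -0.28 in shTCF1, none called. ATP5F1B had 14.31 and 14.17 in control against 13.87 and 13.98 in shGATA3 and 13.85 and 14.08 in shTCF1, so that its hairpin arrays lay below both control arrays. ATP5IF1 differed by 0.02 and -0.08. Of the 19 genes of the complex, 14 lay above control in shGATA3 and 13 in shTCF1, with medians of 0.18 and 0.052, of which the second turned to -0.033 with quantile normalization and to -0.011 with the deposited matrix. ATP5MGL, a close relative of ATP5MG, had differences of 0.41 and 0.18 beside 0.42 and 0.19 for ATP5MG, and the probes may not separate the 2 transcripts.

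**Figure D2:**
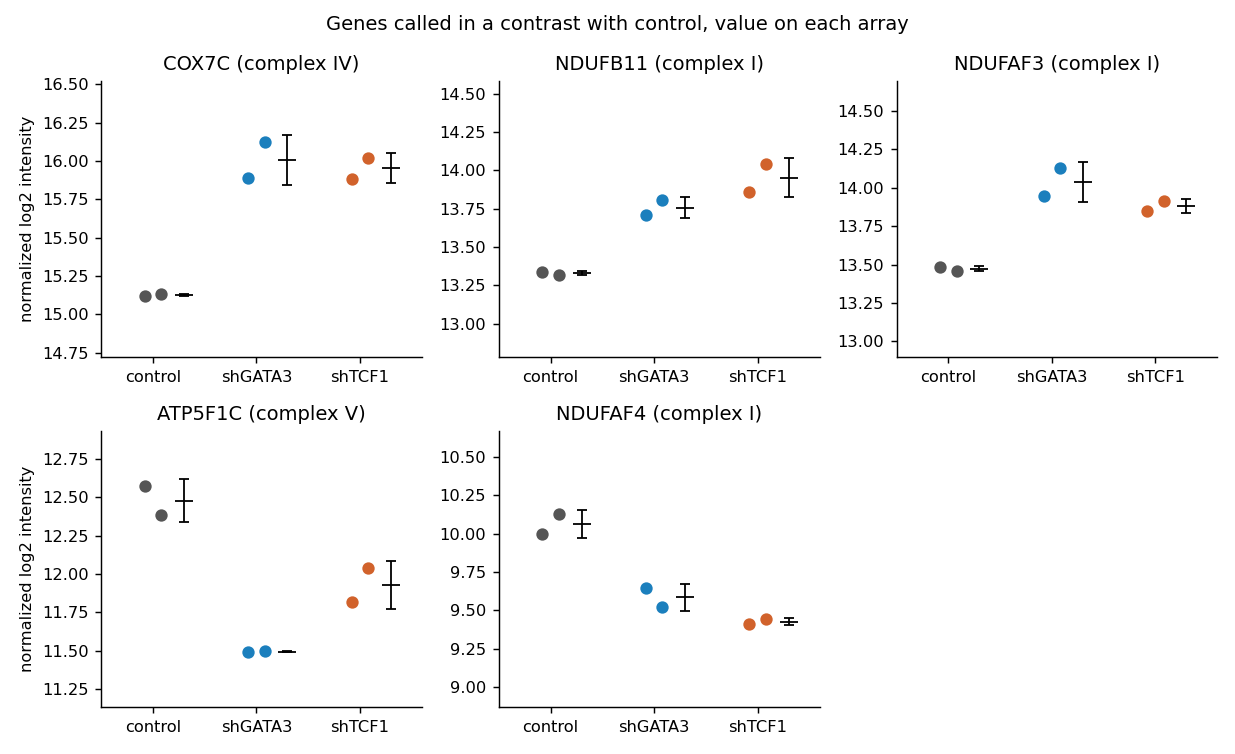
Normalized log2 intensity of 5 genes called in a contrast with control. Coloured dots are single arrays, and the black mark and bar give the mean and SD (n = 2). Every panel spans the same 1.8 log2 units. COX7C, NDUFB11 and NDUFAF3 were higher on all 4 hairpin arrays than on both control arrays, and ATP5F1C and NDUFAF4 were lower on all 4.

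With the main normalization, most oxidative phosphorylation genes were higher on replicate 2 than on replicate 1 of each hairpin group. These are differences between single arrays, which vary more than differences between means of 2 arrays. Of the 95 members, 89 were higher on shGATA3 replicate 2 than on shGATA3 replicate 1, by a median of 0.22, and 89 were higher on shTCF1 replicate 2 than on shTCF1 replicate 1, by a median of 0.18. Between the control arrays 32 were higher on replicate 2, and the median was -0.020. With quantile normalization the counts were 88 and 76 and the medians 0.16 and 0.056, so that the size of the shift within shTCF1 depended on the scaling. With the deposited matrix the counts were 14 and 85, but there the columns of the 2 shGATA3 replicates each correlated best with the scanner values of the other array. Among all tested probes, 47.8% and 57.1% were higher on replicate 2 of the hairpin groups, and in the brightest decile 61.4% and 87.4%. The median difference from the control mean was 0.028 on shGATA3 replicate 1 and 0.21 on replicate 2, and -0.089 and 0.099 on the shTCF1 arrays. The group median of 0.13 for shGATA3 was thus carried by replicate 2, and without it the median was 0.028, with 53 of 95 members above control. Every complex took part, since the median of complex IV moved from 0.069 to 0.33 and that of complex II from -0.053 to 0.067 between the shGATA3-labelled arrays. The mitochondrial ribosomal proteins did likewise, with 62 and 73 of 77 genes higher on replicate 2 of shGATA3 and shTCF1.

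**Figure D3:**
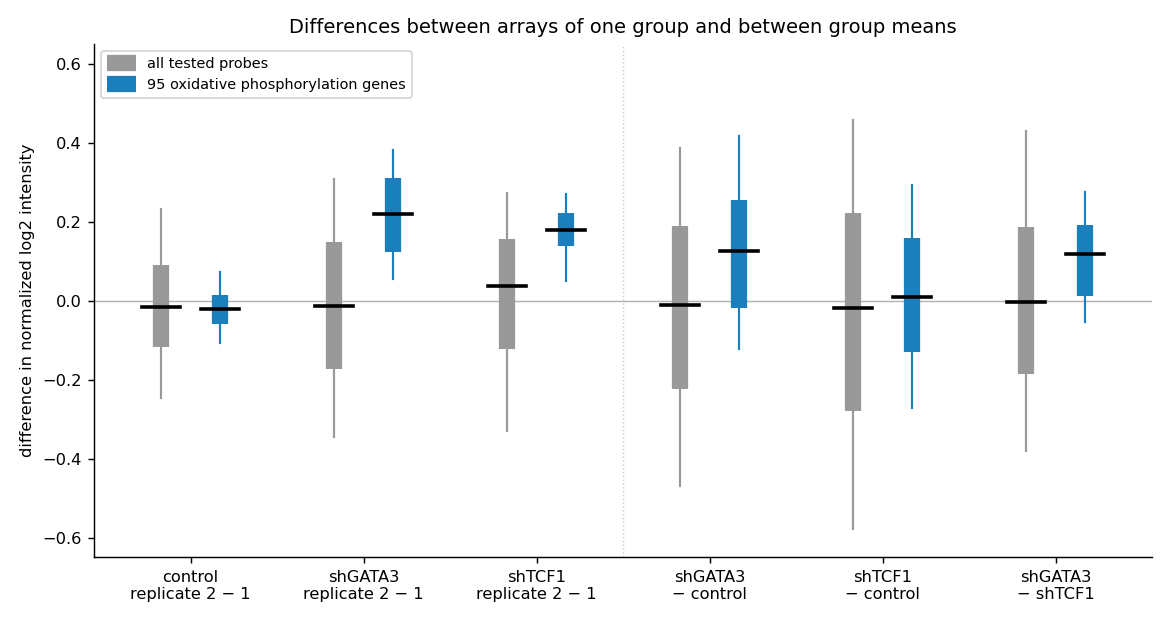
Differences in normalized log2 intensity between the arrays of 1 group (left of the dotted line) and between group means (right), for all 31134 tested probes (grey) and the 95 oxidative phosphorylation genes (blue). Black marks are medians, boxes run from the 25th to the 75th percentile and thin lines from the 10th to the 90th. The blue medians of 0.22 and 0.18 between replicate arrays of the hairpin groups exceed the 0.13 and 0.0092 between hairpin groups and control, although the 0.18 falls to 0.045 at the lowest under the 4 other bulk normalizations of the scanner values.

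The hairpin groups were also compared directly. Limma called 0 of 95 members between the shGATA3-labelled and shTCF1 arrays, where 6.18% of all probes were called, and 8 members had an unadjusted p under 0.05, as had 23.4% of all probes. The median was 0.12, with 77 members above 0. Over all tested probes it was -0.0041, with 49.4% above 0. The median over the members was 0.017 without shGATA3 replicate 2 and 0.035 without shTCF1 replicate 1. Among the 8, which were named after their values were seen, the largest differences were in small subunits. COX6A1, the ubiquitous isoform of that subunit of complex IV, had 15.84 and 15.84 in control, 15.90 and 16.25 in shGATA3 and 15.29 and 15.58 in shTCF1, so that control lay between the hairpin groups (difference 0.64, adjusted p 0.0797). UQCR10 had 15.09 and 15.31 in shGATA3 against 14.54 and 14.72 in shTCF1, and its 3 probes gave differences of 0.57, 0.54 and 0.38 (adjusted p 0.0546 for the brightest). NDUFA12, NDUFB8 and SDHAF4 were likewise higher in shGATA3, by 0.31 to 0.51, and ATP5F1C and NDUFAF2 were lower, by -0.43 and -0.35.

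A single probe was tested for 78 of the 95 members and several for 17. None of the called genes had a second probe, so that no call could be compared with another probe of its gene. Among the 17, 0 probes were called in any contrast.

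Related mitochondrial genes were read from the same fit. Of 198 tested genes in 6 lists, limma called 8 on the shGATA3-labelled arrays, 2 higher and 6 lower, and 18 in shTCF1, 3 higher and 15 lower, against the 6.84% and 16.9% of all probes. The list medians were small, and several changed sign with the deposited matrix or with 75th percentile scaling. Mitochondrial ribosomal proteins had medians of 0.051 and -0.075, assembly factors outside the symbol rule -0.051 and -0.10, electron carriers -0.12 and -0.11, carriers and porins -0.083 and -0.038, genes of the tricarboxylic acid cycle -0.11 and -0.10, and regulators of mitochondrial gene expression -0.13 and -0.12. The subunits encoded by mitochondrial DNA were not analysed here.

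Several genes that feed the chain with electrons or substrate were called. GPD2, which passes electrons from glycerol 3-phosphate to ubiquinone, had 5.74 and 6.05 in control, 4.23 and 4.35 on the shGATA3-labelled arrays and 5.70 and 6.47 in shTCF1. GPD2 fell by 1.61 in shGATA3 (adjusted p 0.0262 in limma) and was also lower there than in shTCF1, by -1.80 (adjusted p 0.0179). Its shGATA3 values lay near background, in the range of the myeloid marker CSF1R. That marker, at 4.02 to 4.44, was well above background on only 3 arrays. The size of the GPD2 fall is therefore uncertain. SUCLG2, a subunit of succinyl-CoA ligase, had 8.34 and 8.37 in control, 7.67 and 7.49 in shGATA3 and 6.72 and 6.98 in shTCF1. It fell in both hairpin groups in limma, by 0.77 in shGATA3 (adjusted p 0.0292) and to a 2.83-fold lower signal in shTCF1 (adjusted p 0.00501). Between the hairpin groups it differed by 0.73 (adjusted p 0.0333 in limma). In the tricarboxylic acid cycle list, DLAT of pyruvate dehydrogenase fell by 0.55 in shGATA3, and DLD, its shared lipoamide dehydrogenase, and SUCLA2 fell by 0.46 and 0.51 in shTCF1. SLC25A4, an exchanger of ADP and ATP across the inner membrane, fell by 0.72 and 0.59, whereas UCP2, an uncoupling protein, rose by 0.63 in shGATA3. In shTCF1 the pyruvate carrier subunit MPC1 fell by 0.40 and the carnitine carrier SLC25A20 by 0.38. SLC25A13, the aspartate and glutamate carrier, was called only between the hairpin groups, at -0.72. The deposited matrix turned the direction of SUCLG2 in shGATA3, of SUCLA2 and MPC1 in shTCF1 and of SLC25A4 in both.

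Genes of ubiquinone synthesis and regulators of mitochondrial gene expression also held calls. COQ8A fell by 0.72 on the shGATA3-labelled arrays, and COQ7 by 0.61 in shTCF1. These 2 ubiquinone synthesis genes differed between the hairpin groups in opposite directions, by -0.61 and 0.67 (adjusted p 0.0356 and 0.0233 in limma). SQOR, which oxidises sulfide, fell by 0.43 in shTCF1. Of the regulators, 0 of 17 were called in shGATA3, where 3 had an unadjusted p under 0.05 against 26.5% of all probes, and 3 of 17 fell in shTCF1, a share near the 16.9% of all probes. These were GABPA, by 0.58 (adjusted p 0.0461), YY1, by 0.51 (adjusted p 0.0454), and PPARGC1B, by 0.53 (adjusted p 0.0445). With the deposited matrix YY1 lay 3.11 above control, not called. GABPA had 9.64 and 9.87 in control and 9.14 and 9.21 in shTCF1, with no overlap. Among assembly factors the complex I factor FOXRED1 and the complex III factor LYRM7 fell by 0.52 and 0.43 and HIGD2A rose by 0.53 in shTCF1. In the mitochondrial ribosome MRPL42 fell by 0.48 and 0.41 and MRPL2 rose by 0.52 and 0.84 in the 2 contrasts, MRPL10 rose by 0.48 and MRPS30 fell by 0.45 in shTCF1. The directions of COQ8A in shGATA3 and of SQOR and FOXRED1 in shTCF1 also turned with the deposited matrix.

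**Figure D4:**
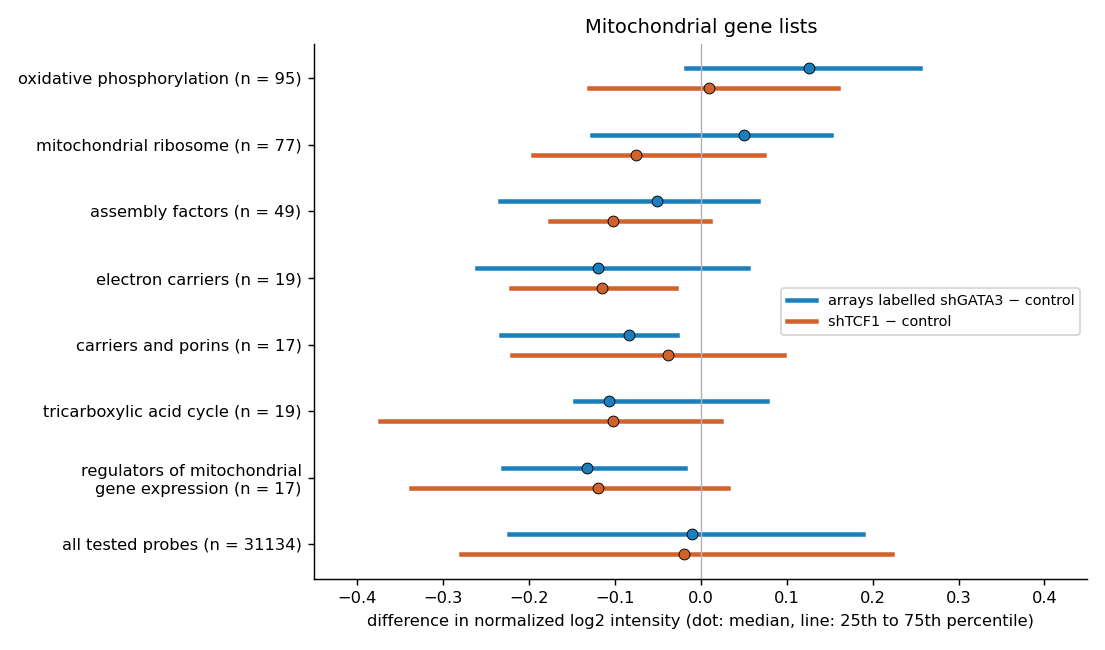
Median difference from control (dot) and range from the 25th to the 75th percentile (line) of normalized log2 intensity for the oxidative phosphorylation genes, 6 related lists and all tested probes. Blue stands for the shGATA3-labelled arrays and orange for shTCF1. The oxidative phosphorylation genes have medians of 0.13 and 0.0092. The second lay between -0.069 and 0.060 under 5 other normalizations, the deposited matrix among them, and both were -0.70 on control RNAs.

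All these values are relative to the bulk of the probes. The E1A control RNAs that Agilent adds to each labelling reaction did not follow the brightness of the arrays. The mean of 7 such probes was 0.19 and 0.23 above control on the shGATA3-labelled arrays and 0.21 and -0.084 from it on the shTCF1 arrays. Scaled on these probes instead, the median of all tested probes shifted to -0.83 in shGATA3 and -0.72 in shTCF1, and those of the oxidative phosphorylation genes to -0.70 and -0.70, with 94 of 95 members below control in each contrast. Relative to the shift of all probes, COX7C lay 0.92 and 0.88 above control and ATP5F1C -0.94 and -0.50 from it. Whether the hairpin samples held less mRNA per input was not tested.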

How the data were processed

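RNA of 6 samples was hybridised to a custom 1-colour Agilent array. Per the file headers, the deposited intensity values came from Feature Extraction 10.7.1.1 (GEO's processing notes give 9.1), with background subtraction and detrending and no scaling between arrays. A deposited matrix holds the authors' log2 values, VSN-normalized per their methods, with scale and centring unstated. Its column medians ran from 4.94 to 5.11. It served only as an alternative, because its control replicate 2 column correlated at 0.759 across probes with that array's scanner values and 4 of 6 columns matched the other array of their group best. Sample columns left unassigned numbered 0.

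Control spots and spots marked as outliers were left out (71 probes removed), spots of a probe were averaged, and intensities were normalized with the VSN model (trimming quantile 0.9, 7 iterations, 5 strata), rewritten in R 4.3.3 because the package was not installed. Tested probes were well above background throughout 1 group or more, 31134 of 57176 probes. Probes were named by accession through the RefSeq table of GRCh38.p14 (25725 probes). The array files name hg19, so only promoter windows carry coordinates. Differences were tested with limma 3.58.1 (lmFit, eBayes, two-sided, 1 fit over 6 arrays, group as the only term, 3 residual and 2.97 prior degrees of freedom), with Benjamini-Hochberg adjustment over all tested probes and a threshold of 0.05. Each gene is given by its brightest tested probe. The number of arrays limits the precision. The steps were tested on simulated data.

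Groups came from the sample titles. Members, gene lists, motifs and tests were chosen with earlier results of these data known, and the NRF1 motif was shortened to its core after a longer form had been counted. Named were the called members (1 gene is not reported here), 13 fixed subunits, the isoform families, GATA3 and TCF7, and the 3 called genes with the largest differences per related list and contrast, and a few others are marked in the text. Alternatives were other normalizations, filters, an intensity trend, fewer arrays, probe averaging, a replicate block and scaling on control RNAs. The last was chosen after seeing the data.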

Additional observations from a re-analysis of the deposited data

How the results depend on the processing

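The values below are counts of called genes, first for the oxidative phosphorylation genes and then for the related lists, in the order shGATA3 against control, shTCF1 against control and shGATA3 against shTCF1. The main counts were 3, 5 and 0 and 8, 18 and 5. Scaling to the 75th percentile left 3, 5 and 0 and gave 5 and 8 for the lists against control. Quantile normalization and cyclic loess each called 2 members between the hairpin groups. Normexp on the median signal gave 12, 19 and 5 and 26, 41 and 17, and an intensity trend gave 9, 12 and 5 and 17, 33 and 12. Testing only probes well above background on all arrays gave 5, 8 and 2 members, and no filter on dim probes gave 0, 4 and 0 members and 0, 4 and 0 list genes, with more probes in the adjustment. Fits to the 4 arrays of a contrast gave 4, 11 and 2 list genes. Scaling on the control RNAs gave 82 and 81 members and 191, 185 and 2 list genes, all lower, with member medians of -0.70 and -0.70. No other scaling run moved the median of all probes by over 0.1. The share of calls that were higher over all probes moved from 42.1% to 53.6% in shGATA3 and from 42.6% to 54.8% in shTCF1 with 75th percentile scaling, and to 53.0% and 53.3% with quantile normalization, while under the first the members' split stayed at 2 higher and 1 lower and at 2 higher and 3 lower.

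The deposited matrix called 0 members and 0 list genes in each contrast. It put above control several genes that the scanner values put below, ATP5F1C by 2.51 and 3.07 in the contrasts with control, SLC25A4 by 1.21 and 1.54, COQ8A by 1.58 and SUCLG2 by 0.54 in shGATA3, and FOXRED1 by 0.73, MPC1 by 0.20, SQOR by 0.62, SUCLA2 by 0.53 and YY1 by 3.11 in shTCF1, none of them called. Without adjustment 1814, 2652 and 1642 probes had p under 0.05 in it. Its control and shGATA3 columns each correlated best with the scanner values of the other array of their group, and that of control replicate 2 at 0.759 with its own. The cause of these differences was not tested.

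Leaving out 1 array at a time gave 0 to 2, 0 to 6 and 0 to 0 called members, 0 to 4, 1 to 11 and 0 to 2 called list genes, and member medians of 0.028 to 0.21, -0.089 to 0.099 and 0.017 to 0.21. An arm left with 1 array was assumed to vary like the other groups. With the replicate number as a block, 2, 4 and 0 members and 3, 5 and 3 list genes were called, and NDUFAF3 in shGATA3 and ATP5F1C in shTCF1 lost their calls. Whether the numbers pair the samples is unknown. Over all tested probes the deviations of same-numbered arrays correlated at -0.040, -0.0098 and 0.049. Such correlations cannot settle it, since pairing is a matter of how the experiments were run. A block on slide or scan time was not run because all arrays shared both. Averaging the probes of a gene left the member counts at 3, 5 and 0. Over all probes, the main counts of 2130, 5274 and 1925 became 4280 and 3281 for shGATA3 against control and between the hairpin groups with normexp, 3912 and 3272 with the trend, 560, 2272 and 901 without a filter, 26685 and 23039 against control on the control RNAs, 1328 for shGATA3 with the block, and 437 to 1454, 865 to 4930 and 701 to 1214 without 1 array. The number of arrays limits the precision of every call.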
